A study of Mus musculus with 15 samples.

Results

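The genes Col1a1, Col1a2, Col3a1, Postn, Sparc, Dcn, Lum, Fn1 and Pdgfra were listed by name as fibroblast and extracellular matrix genes. They were matched by Ensembl gene ID, and all 9 were among the 39179 genes of the count tables and among the 14300 genes that passed the filter on low counts. The samples were submandibular glands, one of the major salivary glands, of adult male C57BL/6 mice. There were 15 libraries of total RNA, and every one of the 5 groups had 3. NT glands were not treated and, like IR glands, came from mice labelled wild type, and IR glands were taken 7 days after local irradiation. The groups IR+GFP, IR+Gli1 and IR+Shh were also irradiated and carried a GFP, Gli1 or Shh intra-SMG transfer, where SMG is the submandibular gland. GFP, a fluorescent protein, served as the transfer control. Shh encodes a ligand that cells secrete to activate Hedgehog signalling, and Gli1 encodes a transcription factor through which that signal acts on genes. The labels do not name the vector, the cells it reached, the species of the transferred genes or the exact age of the mice, and no label says that the libraries came from separate animals. The p-values therefore measure only the spread between these samples.

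The extracellular matrix of glandular connective tissue is made mainly by fibroblasts. Collagens I and III form its fibrils, small leucine-rich proteoglycans such as decorin and lumican bind to these fibrils, and matricellular proteins such as periostin and SPARC act on their assembly and on the cells around them. Fibronectin links cells to the matrix through integrins, and PDGFRA is a receptor through which platelet-derived growth factors stimulate fibroblasts. Excess deposition of such matrix, fibrosis, is a known late effect of radiation in salivary glands. Endothelial cells, macrophages and other cells also make some of these products, among them SPARC and fibronectin.

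In each group, libraries of 1 pair differed by less than the sampling noise, with a mean chi-square per gene of 0.215 to 0.337 against 22.0 to 223 for all other pairs within groups. Each such pair was counted as 1 sample, which left n = 2 per group. The samples are named by their library numbers, so that NT 2-3 is the mean of NT libraries 2 and 3. Libraries held 18205941 to 41064723 reads in genes. Levels are given as CPM, read counts scaled to a common library size, and unless stated otherwise with TMM scaling, which assumes that most genes do not change. A second scaling divided by the total count alone. The 2 scalings differed for IR+Gli1, whose TMM factors were 1.72 and 1.31 against 0.865 to 0.994 in the other samples. The most abundant gene, Mucl2, took 12.3% to 17.9% of gene reads in IR+Gli1 libraries and 16.6% to 32.6% in the others. The acinar genes Prol1 (9798 to 45780 CPM, total count) and Aqp5 (163 to 346) and the granular tubule gene Egf (10960 to 68790) were present in all samples, as the tissue label says. NT 2-3 stood apart, with 1246 CPM of the sublingual gland mucin Muc19 against 0.103 to 18.7 elsewhere. IR+GFP 3 and IR+Gli1 3 had 8.22% and 7.53% of reads with several alignments, against 2.89% to 4.79% in the other libraries. With TMM scaling the mouse gene Gli1 was at 0.514 to 0.768 CPM in NT, IR and IR+GFP samples, at 0.540 and 0.672 in IR+Gli1, within that range, and at 2.69 and 4.24 in IR+Shh. With total-count scaling the values were 0.467 to 0.664, 0.878 to 0.927 and 2.53 to 4.21. Shh had 0 reads in all libraries.

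Of the 9 genes, 5 had an entry in the RefSeq promoter table of GRCm38.p6: Col1a2, Col3a1, Postn, Sparc and Pdgfra. Postn had a second entry at another start site, not shown. The 250 bases before the start site are shown for Postn, which passed the test in 2 comparisons, and for Col3a1, a collagen whose level followed that of Sparc closely. Capitals mark TATAAA, the only one of the motifs searched that was found in these 2 entries. The stretches are chr3:54360857-54361106 and chr1:45311288-45311537, both on the plus strand.
Postn: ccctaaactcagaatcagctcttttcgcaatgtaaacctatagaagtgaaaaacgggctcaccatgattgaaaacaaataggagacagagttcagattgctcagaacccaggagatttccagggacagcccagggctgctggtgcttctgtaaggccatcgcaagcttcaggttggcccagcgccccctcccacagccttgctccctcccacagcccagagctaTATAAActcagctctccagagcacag
Col3a1: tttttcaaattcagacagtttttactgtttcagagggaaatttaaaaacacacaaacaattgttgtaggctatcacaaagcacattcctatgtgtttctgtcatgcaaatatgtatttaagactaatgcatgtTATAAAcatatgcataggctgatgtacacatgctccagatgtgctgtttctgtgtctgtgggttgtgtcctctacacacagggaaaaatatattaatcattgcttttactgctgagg
With the start site as position 0, the motif lies at -26 to -21 in Postn and at -117 to -112 in Col3a1. GC content was 52% for Postn and 35.2% for Col3a1. Both strands of the 300-base table entries, which reach 50 bases past the start, were searched for the TATA letters TATAAA, the CCAAT box, the GC box GGGCGG, the AP-1 letters TGANTCA and the GLI letters GACCACCCA. Of 32851 promoters of that length, 13.6% held TATAAA, 37.4% CCAAT, 35.7% GGGCGG, 7.81% TGANTCA and 0.253% GACCACCCA. The letters GACCACCCA and TGANTCA were found in no entry of the 5 genes, which says only that these letters are not in these windows.

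Per kilobase of exon, the mean TMM-scaled level over the 10 samples was highest for Sparc (27.7 CPM per kb), followed by Postn (17.0) and Dcn (16.5). Lum (4.76), Col3a1 (3.69), Col1a1 (2.65) and Col1a2 (2.43) were lower, and Fn1 (0.748) and Pdgfra (0.723) were lowest. The smallest number of reads in a library was 69 for Fn1, 84 for Pdgfra and 143 for Lum, and 244 or more for the other genes. Fn1, Pdgfra and Lum are therefore measured with the least precision.

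Col1a1 (ENSMUSG00000001506, chromosome 11, 94936224 to 94953042, GRCm38) and Col1a2 (ENSMUSG00000029661, chromosome 6, 4504814 to 4541544) encode the chains of collagen I. Col1a1 was at 12.6 and 13.5 CPM in NT, 16.6 and 21.0 in IR, 13.1 and 21.0 in IR+GFP, 10.8 and 17.3 in IR+Gli1, and 20.4 and 27.5 in IR+Shh. The IR+Shh group had the highest mean, 24.0 ± 5.07 CPM (SD, n = 2), and NT the lowest, 13.1 ± 0.675, but each group overlapped its neighbour in this order. Col1a2 was at 25.2 and 27.9 CPM in NT, 28.0 and 32.6 in IR, 22.9 and 35.9 in IR+GFP, 20.9 and 34.0 in IR+Gli1, and 30.0 and 44.8 in IR+Shh. Its groups stood in the same order and overlapped in the same way.

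Col3a1 (ENSMUSG00000026043, chromosome 1, 45311538 to 45349706) encodes collagen III, which lies in mixed fibrils with collagen I in soft tissue. Its level was 35.2 and 40.1 CPM in NT, 34.1 and 47.7 in IR, 25.5 and 41.6 in IR+GFP, 21.7 and 29.4 in IR+Gli1, and 40.3 and 46.9 in IR+Shh. Both IR+Gli1 samples were below both NT, IR and IR+Shh samples.

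Postn (ENSMUSG00000027750, chromosome 3, 54361109 to 54391037) encodes periostin, a matricellular protein that acts in collagen fibril assembly. It was at 135 and 121 CPM in NT 1 and NT 2-3, 160 and 166 in IR, 176 and 165.5 in IR+GFP, 84.7 and 128 in IR+Gli1, and 157 and 184 in IR+Shh. All IR, IR+GFP and IR+Shh samples were above all NT and IR+Gli1 samples. Sparc (ENSMUSG00000018593, chromosome 11, 55394500 to 55423183, minus strand) encodes a collagen-binding matricellular protein. It was at 112 and 110.5 CPM in NT, 112 and 125 in IR, 90.6 and 106.5 in IR+GFP, 74.6 and 87.1 in IR+Gli1, and 111 and 118.5 in IR+Shh. The IR+Gli1 samples were the lowest of the 10, and the IR+GFP samples lay between them and the rest.

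Dcn (ENSMUSG00000019929) and Lum (ENSMUSG00000036446), the genes of the proteoglycans decorin and lumican, are neighbours on chromosome 10, at 97479609 to 97518143 and 97565128 to 97572703, with 46984 bases and 0 annotated genes between them. With TMM scaling Dcn varied least between the group means. Its level was 106 and 85.5 CPM in NT, 83.0 and 102 in IR, 84.4 and 96.0 in IR+GFP, 88.1 and 102 in IR+Gli1, and 90.9 and 124 in IR+Shh, and each group overlapped its neighbour in the order of means. Lum was at 16.7 and 9.91 CPM in NT, 9.51 and 13.4 in IR, 8.998 and 10.9 in IR+GFP, 3.19 and 6.12 in IR+Gli1, and 14.3 and 23.4 in IR+Shh. Both IR+Gli1 samples were below all 8 others, and IR+Shh 2 was the highest.

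Fn1 (ENSMUSG00000026193, chromosome 1, 71585520 to 71653200, minus strand) encodes fibronectin. It was at 9.07 and 13.1 CPM in NT, 6.39 and 12.7 in IR, 4.01 and 9.90 in IR+GFP, 6.27 and 4.74 in IR+Gli1, and 7.11 and 14.1 in IR+Shh. Its samples differed by up to 2.47-fold within a group. Fn1 overlaps Apol7d on the other strand, and as the strand mode of the counting is not given in the sources used here, its level is uncertain. Pdgfra (ENSMUSG00000029231, chromosome 5, 75152292 to 75198215) was at 10.3 and 7.71 CPM in NT, 8.87 and 9.36 in IR, 7.29 and 8.37 in IR+GFP, 2.72 and 6.79 in IR+Gli1, and 4.64 and 6.45 in IR+Shh. All IR+Gli1 and IR+Shh samples were below all NT, IR and IR+GFP samples. Pdgfra overlaps the microRNA gene Mir7025.

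These orders are those of TMM scaling. With total-count scaling IR+Gli1 overlapped IR+GFP for Lum, Postn and Pdgfra, and had the highest group mean for Sparc, Dcn and Col1a2.

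**Figure D1:**
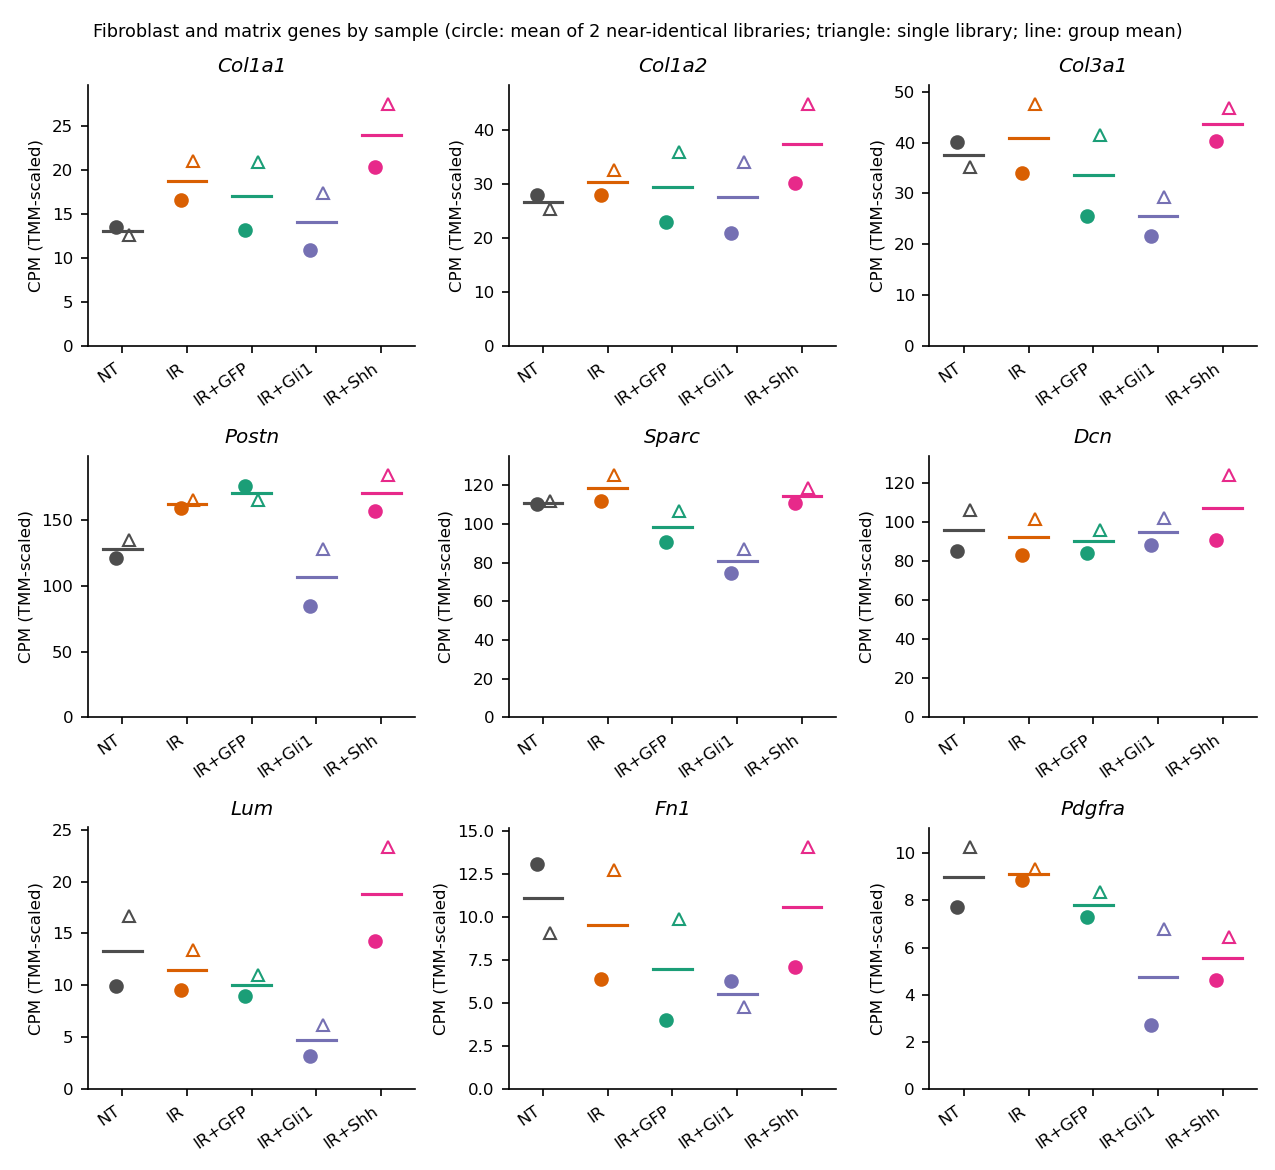
TMM-scaled level (CPM, vertical axes from 0) of each of the 9 genes in the 10 samples, by group. Circles are the mean of 2 near-identical libraries, triangles are single libraries and lines are group means. The IR+Gli1 samples are the lowest for Sparc and Lum, while the group means of Dcn differ least. All values here are with TMM scaling.

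Irradiation alone was examined by comparing IR with NT. None of the 9 genes passed the edgeR quasi-likelihood test at a Benjamini-Hochberg adjusted p under 0.05, where 0.678% of all genes tested did. At an unadjusted p under 0.05 by edgeR the count was also 0, where 17.5% of all genes were under it. DESeq2 and limma-voom called 0 of the 9 as well. The largest difference was that of Col1a1, at 18.8 ± 3.15 CPM in IR and 13.1 ± 0.675 in NT (SD, n = 2; log2 fold change 0.52 ± 0.29 SE, adjusted p = 0.391). With no filter on low counts Col1a1 passed (0.50, edgeR adjusted p = 0.0257). Postn followed with 163 ± 4.27 against 128 ± 10.1 CPM (0.34 ± 0.18, adjusted p = 0.351), and Sparc, Dcn and Pdgfra had log2 fold changes of 0.09, -0.05 and 0.02. Col1a1, Col1a2, Postn and Sparc were higher in both IR samples than in both NT samples, which is 4 of 9, where 23.9% of all genes were higher without overlap. With total-count scaling Col1a1 and Postn alone of the 9 were, against 21.9%. The median of the 9 was 0.09, and that of all genes -0.02. As the whole gland was sequenced, fewer fibroblasts and less RNA per fibroblast cannot be told apart in this or any other comparison.

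The transfer itself was examined with IR+GFP against IR. Again 0 of the 9 genes passed, against 0% of all genes tested. By edgeR 298 genes, 2.08% of all tested, had an unadjusted p under 0.05, of which 0 were among the 9. DESeq2 called 7 of all genes and limma-voom 0, and neither called any of the 9. Fold changes ran from -0.46 ± 0.54 for Fn1 to 0.07 ± 0.18 for Postn, with a median of -0.19 where that of all genes was 0.00. Sparc (98.6 ± 11.3 against 119 ± 9.40 CPM, log2 -0.27 ± 0.12) and Pdgfra (7.83 ± 0.758 against 9.11 ± 0.345) were lower in both IR+GFP samples than in both IR samples, 2 of 9 where 15.9% of all genes were lower without overlap.

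Transfer of Gli1 was set against the GFP control. Postn was lower in IR+Gli1, and no other gene of the 9 passed: 1 of 9 with TMM scaling, where 13.9% of all genes tested passed and 5.71% passed as lower. Postn was at 106.5 ± 30.8 CPM in IR+Gli1 and 171 ± 7.51 in IR+GFP (SD, n = 2), a fitted log2 fold change of -0.68 ± 0.18 (edgeR adjusted p = 0.0337). With total-count scaling its fold change was 0.07 ± 0.16 (adjusted p = 0.713), so its direction rests on the scaling. Leaving out either IR sample, either IR+GFP sample, IR+Gli1 1-2 or either IR+Shh sample ended the call, with edgeR adjusted p of 0.0514 to 0.19, while the fold change stayed between -1.02 and -0.42.

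The other 8 genes did not pass with TMM scaling in this comparison. Lum was at 4.66 ± 2.08 CPM in IR+Gli1 and 9.97 ± 1.38 in IR+GFP (log2 -1.12 ± 0.41, edgeR adjusted p = 0.114). Pdgfra was at 4.76 ± 2.88 and 7.83 ± 0.758 CPM (-0.74 ± 0.38, adjusted p = 0.236), and Sparc at 80.8 ± 8.83 and 98.6 ± 11.3 CPM (-0.29 ± 0.12, adjusted p = 0.145). These 3 genes and Postn were lower in both IR+Gli1 samples than in both IR+GFP samples, 4 of 9 where 27.3% of all genes were lower without overlap. The replicate numbers of IR+GFP and IR+Gli1 deviated together, and with the number as a block, on 15 libraries, Sparc (-0.29, edgeR adjusted p = 0.00423), Lum (-1.25, 0.00704) and Pdgfra (-0.99, 0.0142) passed too. That fit called 6495 of all genes and counts near-identical libraries separately. In the same libraries with no block the 3 genes also passed, where 6518 of all genes did. On the 10 merged samples, when the single libraries IR+GFP 3 and IR+Gli1 3 shared an added coefficient, Postn alone passed (-0.71, edgeR adjusted p = 0.0184). Without IR+Gli1 3, Lum (-1.62, adjusted p = 0.0464) and Pdgfra (-1.51, adjusted p = 0.00356) passed as well. The median of the 9 was -0.30, beside 0.01 for all genes. With total-count scaling the median of all genes was 0.78 and that of the 9 genes 0.47. On that scale Col1a2 (0.64 ± 0.25, adjusted p = 0.0388), Sparc (0.49 ± 0.16, adjusted p = 0.0136) and Dcn (0.85 ± 0.19, adjusted p = 0.00174) passed as higher, where 67.6% of all genes did. Lum (-0.38 ± 0.33) and Pdgfra (-0.03 ± 0.29) alone kept a fold change below 0 under both scalings.

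Transfer of Shh was set against the same IR+GFP samples, which this comparison therefore shares with that of IR+Gli1. None of the 9 genes passed, against 0% of all genes tested. By edgeR 872 genes, 6.10% of all tested, had an unadjusted p under 0.05, and Lum was the 1 of the 9 among them. DESeq2 called 32 of all genes, limma-voom 0, and neither called any of the 9. Lum was at 18.8 ± 6.41 CPM in IR+Shh and 9.97 ± 1.38 in IR+GFP (SD, n = 2; log2 0.92 ± 0.39, edgeR adjusted p = 0.814). Col1a1 (0.50 ± 0.29), Col3a1 (0.38 ± 0.26) and Fn1 (0.63 ± 0.54) had fold changes above 0, and Pdgfra one below 0 (-0.49 ± 0.38), with edgeR adjusted p of 0.826, 0.842, 0.854 and 0.852. Lum and Sparc were higher in both IR+Shh samples, 2 of 9 where 21.7% of all genes were higher without overlap, and Pdgfra was lower, where 20.4% were. The median of the 9 was 0.36, and that of all genes 0.00. With total-count scaling 0 of the 9 passed as well, but Col1a1, Col3a1, Sparc, Dcn and Lum were higher without overlap, 5 of 9 where 43.2% of all genes were. On that scale Pdgfra overlapped, and 4 of the 9 had an unadjusted p under 0.05 by edgeR, where 5.01% of all genes did. The medians were 0.50 for the 9 and 0.14 for all genes.

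Lastly, IR+Shh was set against IR+Gli1, so that glands given either Hedgehog gene were compared directly. Lum, Sparc and Postn were higher in IR+Shh with TMM scaling, 3 of 9 where 7.76% of all genes tested passed and 2.76% passed as higher. Lum had the largest difference, 18.8 ± 6.41 CPM in IR+Shh against 4.66 ± 2.08 in IR+Gli1 (SD, n = 2; log2 2.04 ± 0.40, edgeR adjusted p = 0.0286). It was also the 1 gene of the 9 that passed with total-count scaling (1.45 ± 0.33, adjusted p = 0.00537), where 0.587% of all genes passed as higher. Sparc differed by 0.51 ± 0.12 (adjusted p = 0.0367) and Postn by 0.68 ± 0.18 (adjusted p = 0.0489) with TMM scaling, but by -0.12 ± 0.16 and 0.08 ± 0.16 with total-count scaling, where neither passed. This comparison shares its IR+Gli1 samples with that of IR+Gli1 and IR+GFP, so the values of Postn in the 2 are not independent.

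Each of these calls depended on the samples in the fit. The call of Lum was lost without either IR sample, IR+GFP 1-2, IR+Gli1 1-2 or either IR+Shh sample (edgeR adjusted p = 0.0517 to 0.161), with fold changes of 1.62 to 2.55 over all 10 omissions. That of Sparc was lost without either IR sample, IR+Gli1 1-2 or either IR+Shh sample (adjusted p = 0.0657 to 0.198). That of Postn was lost in every omission but that of IR+Gli1 3 (adjusted p = 0.0554 to 0.245), and by limma-voom. When only the groups being compared were fitted, none of the 9 was called in either comparison with IR+Gli1.

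Of the genes that did not pass, Col1a1 (24.0 ± 5.07 against 14.1 ± 4.59 CPM, log2 0.78 ± 0.28, edgeR adjusted p = 0.131) and Col3a1 (43.6 ± 4.65 against 25.5 ± 5.44, 0.78 ± 0.26, adjusted p = 0.105) were higher in both IR+Shh samples, as was Fn1 (0.93 ± 0.53, adjusted p = 0.308). With the coefficient shared by IR+GFP 3 and IR+Gli1 3, Col1a1 (1.14, edgeR adjusted p = 0.00738), Col1a2 (0.83, 0.0314) and Col3a1 (1.07, 0.0102) passed as higher. No IR+Shh sample carried that coefficient, so between the groups compared here it lowered the fitted level of IR+Gli1 alone. Without IR+Gli1 3, the fold change of Col1a1 was likewise 1.15. The block on 15 libraries called these 3 (edgeR adjusted p = 0.00189, 0.0491 and 0.000645), but it counts near-identical libraries separately and called 6092 of all genes. In the merged fit, with Lum, Sparc and Postn, 6 of 9 were higher without overlap, where 28.8% of all genes were. Dcn (0.18 ± 0.18) and Pdgfra (0.26 ± 0.38) differed least with TMM scaling, and both had fold changes below 0 with total-count scaling (-0.45 ± 0.19 and -0.31 ± 0.30). The median of the 9 was 0.68 with TMM and 0.08 with total-count scaling, and that of all genes -0.02 and -0.66.

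**Figure D2:**
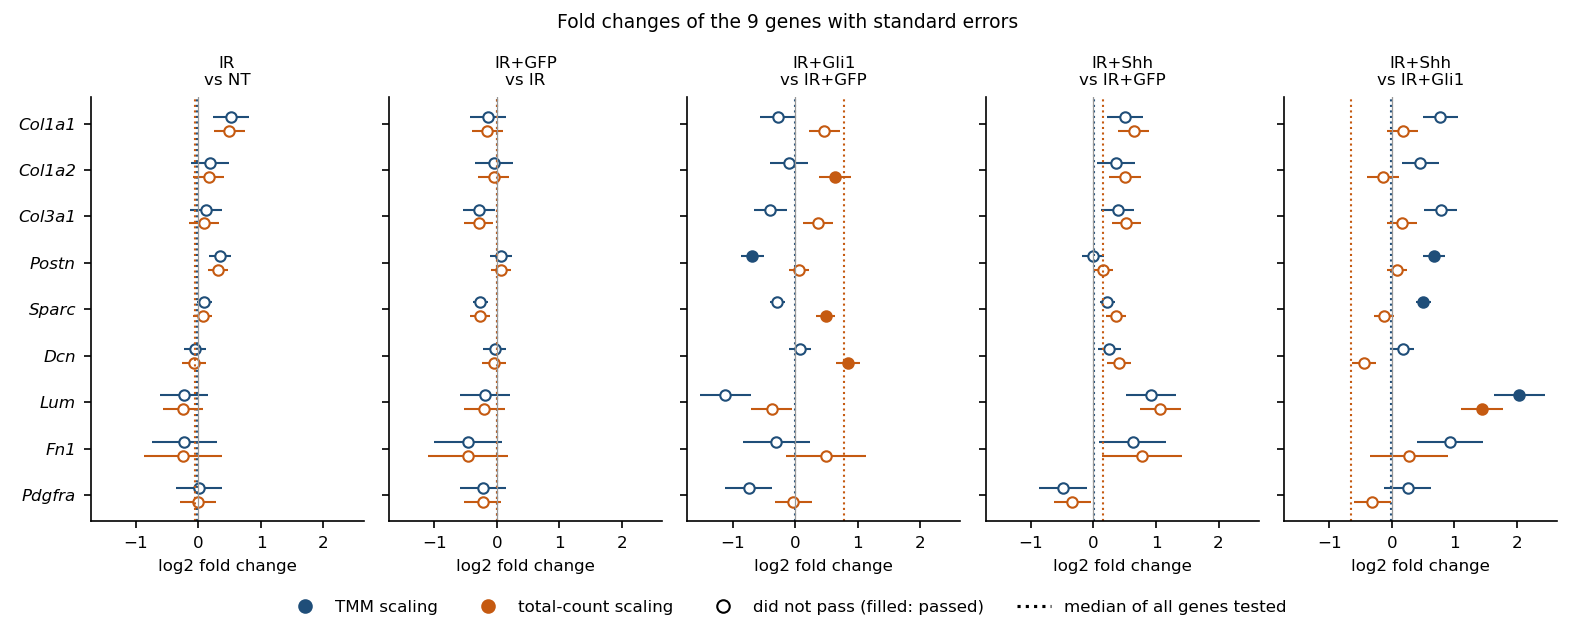
Log2 fold change (horizontal axis) of the 9 genes in the 5 comparisons, with standard errors as bars, under TMM scaling (blue) and total-count scaling (orange). Filled points passed at an adjusted p under 0.05, and dotted lines are the median of all genes tested. The scalings part in the comparisons with IR+Gli1, and Lum is filled under both in IR+Shh against IR+Gli1.

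Ratios of read counts within a sample do not depend on the scaling. Some pairs of genes were chosen for this after their values were seen, so the ratios are given as descriptions with no test, and an exact permutation test of 2 against 2 samples could not give a p below 0.333. Lum per Dcn read was 0.157 and 0.116 in NT, 0.115 and 0.131 in IR, 0.107 and 0.114 in IR+GFP, 0.0362 and 0.0599 in IR+Gli1, and 0.157 and 0.188 in IR+Shh. Both IR+Gli1 samples were thus below all others in the ratio of these neighbouring genes. Pdgfra per Dcn read was 0.0865 to 0.107 in the 6 samples of NT, IR and IR+GFP, 0.0309 and 0.0664 in IR+Gli1, and 0.0510 and 0.0520 in IR+Shh. In this ratio both groups that received a Hedgehog gene were below the 3 others. Postn per Dcn read was 0.961 and 1.25 in IR+Gli1 and 1.72 and 2.09 in IR+GFP, while NT, at 1.27 and 1.42, was also below IR (1.92 and 1.63).

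The proportions of the collagens were not tested either. Col3a1 per Col1a1 read was 2.80 and 2.96 in NT, and 1.69 to 2.27 in the 8 irradiated samples. Col1a1 per Col1a2 read was 0.499 and 0.486 in NT, 0.593 and 0.645 in IR, 0.575 and 0.584 in IR+GFP, 0.519 and 0.510 in IR+Gli1, and 0.678 and 0.615 in IR+Shh. For both ratios the groups NT and IR did not overlap.

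**Figure D3:**
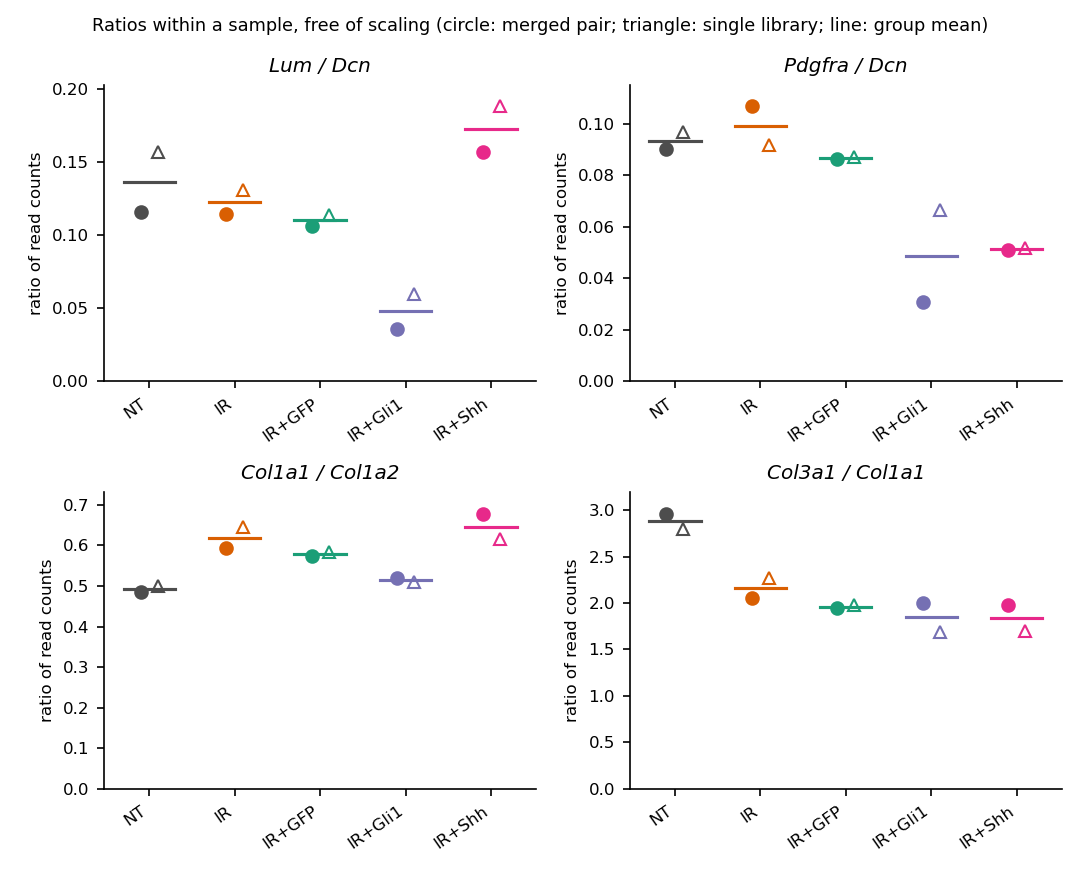
Ratio of read counts (vertical axes from 0) for 4 pairs of genes in each sample. Circles are merged pairs, triangles single libraries and lines group means. Lum per Dcn is lowest in IR+Gli1, Pdgfra per Dcn is lower in IR+Gli1 and IR+Shh than in the other groups, and Col3a1 per Col1a1 is highest in NT.

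Within groups, the 9 genes tended to be high or low together. In IR and in IR+Shh all 9 were higher in the single library (IR 3, IR+Shh 2) than in the merged sample. The same held for 8 of 9 in IR+GFP, Postn being the exception, and for 8 of 9 in IR+Gli1, Fn1 being the exception, but for 5 of 9 in NT. Of all genes, 47.6% to 51.6% were higher in the single library. The largest such differences were those of Pdgfra in IR+Gli1 (2.50-fold) and Fn1 in IR+GFP (2.47-fold). The sum of the 9 genes ran from 313 CPM in IR+Gli1 1-2 to 590 in IR+Shh 2. With total-count scaling the sums of IR+Gli1 were 537 and 544 CPM, above those of NT (408 and 390).

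Over the 10 samples the log2 levels of all 36 pairs of the 9 genes had correlations above 0, with a median Pearson r of 0.602. These values are descriptions, as all points share library scaling and the groups. The closest pairs were Col1a1 with Col1a2 (r = 0.934) and Col3a1 with Sparc (0.931), and the loosest Postn with Fn1 (0.174) and Dcn with Pdgfra (0.187). Among 10602 other genes, those most like the mean of the 9 over these 10 samples were Nid1 (r = 0.984), which encodes the basement membrane protein nidogen, Col6a1 (0.955), the macrophage scavenger receptor gene Cd163 (0.954), Fars2 (0.941), Col6a2 (0.939), Calml3 (0.920), Prkaca (0.920) and Col6a3 (0.913). Chains of collagen VI, a microfibrillar collagen, were thus 3 of the 8.

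Other matrix genes were taken from 10 lists with 186 symbols, of which 171 were tested. In IR against NT, 2 of them passed, 1.17% beside the 0.678% of all genes. Lama5, a laminin chain of basement membranes, was at 135 ± 6.12 CPM in IR and 68.4 ± 2.20 in NT (SD, n = 2; log2 0.97 ± 0.13, edgeR adjusted p = 0.0152). Its 2 NT samples, at 70.0 and 66.9 CPM, were below all 8 irradiated samples, which lay between 105 and 139. Ltbp2, a microfibril-associated protein, was at 21.7 ± 1.11 against 10.6 ± 2.29 CPM (1.03 ± 0.16, adjusted p = 0.0268). Both passed with either scaling, and neither passed without NT 2-3 or without either IR sample (adjusted p up to 0.156 for Lama5 and 0.21 for Ltbp2); Ltbp2 was also lost without either IR+Shh sample. In IR+GFP against IR and in IR+Shh against IR+GFP, 0 of the 171 passed.

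In IR+Gli1 against IR+GFP, 27 of the 171 rose and 10 fell with TMM scaling, 21.6% beside the 13.9% of all genes, with a median of 0.16. Of all 14300 genes tested, 1177 passed as higher and 816 as lower, beside which the counts of each list stand. With total-count scaling 105 rose and 2 fell, 62.6%, where 9749 of all 14300 genes passed and 67.6% passed as higher. The medians on that scale were 0.93 for the 171 and 0.78 for all genes. Of the 37, 29 also passed in the same direction with total-count scaling, namely the 27 that rose and, lower, Col5a1 and Fmod. As that scaling put most genes higher in IR+Gli1, the repeat of the 27 is no separate support. Matrix proteases and their inhibitors gave 6 of 17 that rose and 0 that fell. Timp1, which inhibits metalloproteinases, was at 10.3 and 4.70 CPM in IR+Gli1 and 0.469 and 0.431 in IR+GFP (log2 3.87 ± 0.45). Mmp3, a metalloproteinase that cleaves many matrix proteins, was at 11.1 and 8.85 CPM against 1.62 and 1.66 (2.56 ± 0.23). Mmp14, a membrane-bound collagenase, rose by 1.64 ± 0.31. All samples outside IR+Gli1 had 0.431 to 1.32 CPM of Timp1 and 0.885 to 2.13 of Mmp3.

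Of the matricellular genes 4 of 15 rose and 1 fell. Tgfbi, an adhesion protein induced by TGF-beta, rose by 2.65 ± 0.32, Spp1, which encodes osteopontin, by 2.36 ± 0.35, and Ccn2, which encodes connective tissue growth factor, by 1.20 ± 0.22. Among collagen processing genes 2 of 22 rose and 1 fell: Loxl3, a crosslinking oxidase, rose by 1.85 ± 0.31, Plod3, a lysyl hydroxylase, by 0.63 ± 0.13, and Bmp1, which trims procollagen, fell by 0.71 with TMM scaling but stood at 0.08 with total-count scaling. Of 12 other fibrillar and fibril-associated collagens, Col5a3 rose by 0.93 ± 0.26 and Col5a1 differed by -1.44 ± 0.29. Of the 9 other small leucine-rich proteoglycans, Prelp rose by 0.92 ± 0.11 and Fmod, which encodes fibromodulin, differed by -1.90 ± 0.36. Fmod was at 4.14 and 10.2 CPM in IR+Gli1 and 18.1 to 28.4 in all other samples, so that, as for Lum with TMM scaling, both IR+Gli1 samples were the lowest, whereas Prelp was at 45.4 and 42.0 CPM in IR+Gli1 and 17.4 to 27.5 elsewhere.

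Basement membrane genes gave 2 of 21 that rose and 3 that fell. Agrn (agrin) differed by 1.16 ± 0.20 and Col18a1 by 0.86 ± 0.17, and Col4a3 by -1.17 ± 0.28, the last without passing on total-count scaling (-0.41). Among elastic fibre genes Emilin2 (2.61 ± 0.56) and Ltbp1 (1.17 ± 0.30) rose and Ltbp4 (-0.87 ± 0.15) fell, 2 and 1 of 16, with Ltbp4 at -0.11 on total-count scaling. Of 21 matrix receptors 5 rose, among them Sdc4 (0.63 ± 0.13), Itga3 (0.68 ± 0.16) and Itga5 (1.60 ± 0.39), the last a chain of the fibronectin receptor. Of 18 genes of PDGF ligands and the TGF-beta pathway, Pdgfb (0.80 ± 0.22) rose, and Tgfb2 (-0.83 ± 0.19) fell with TMM scaling but stood at -0.08 on total-count scaling.

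Of 20 tested fibroblast markers 3 rose and 1 fell. Ly6a, which encodes the surface protein Sca-1 of fibroblasts, endothelium and other cells, was at 771 and 311 CPM in IR+Gli1 and 38.2 and 46.6 in IR+GFP (log2 3.67 ± 0.50). S100a4 rose by 2.81 ± 0.48, and Dpp4 passed as lower with TMM scaling (-0.40 ± 0.10) but as higher with total-count scaling (0.37). The median of the 20 was -0.18. Fewer of the 37 genes passed when a sample was left out: 2 (Mmp3 and Timp1) without IR+GFP 1-2, 13 without IR+Gli1 1-2, 16 without IR+GFP 3, 24 without either IR+Shh sample and 25 without either IR sample. A fit of the 2 groups alone called 0 of them.

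**Figure D4:**
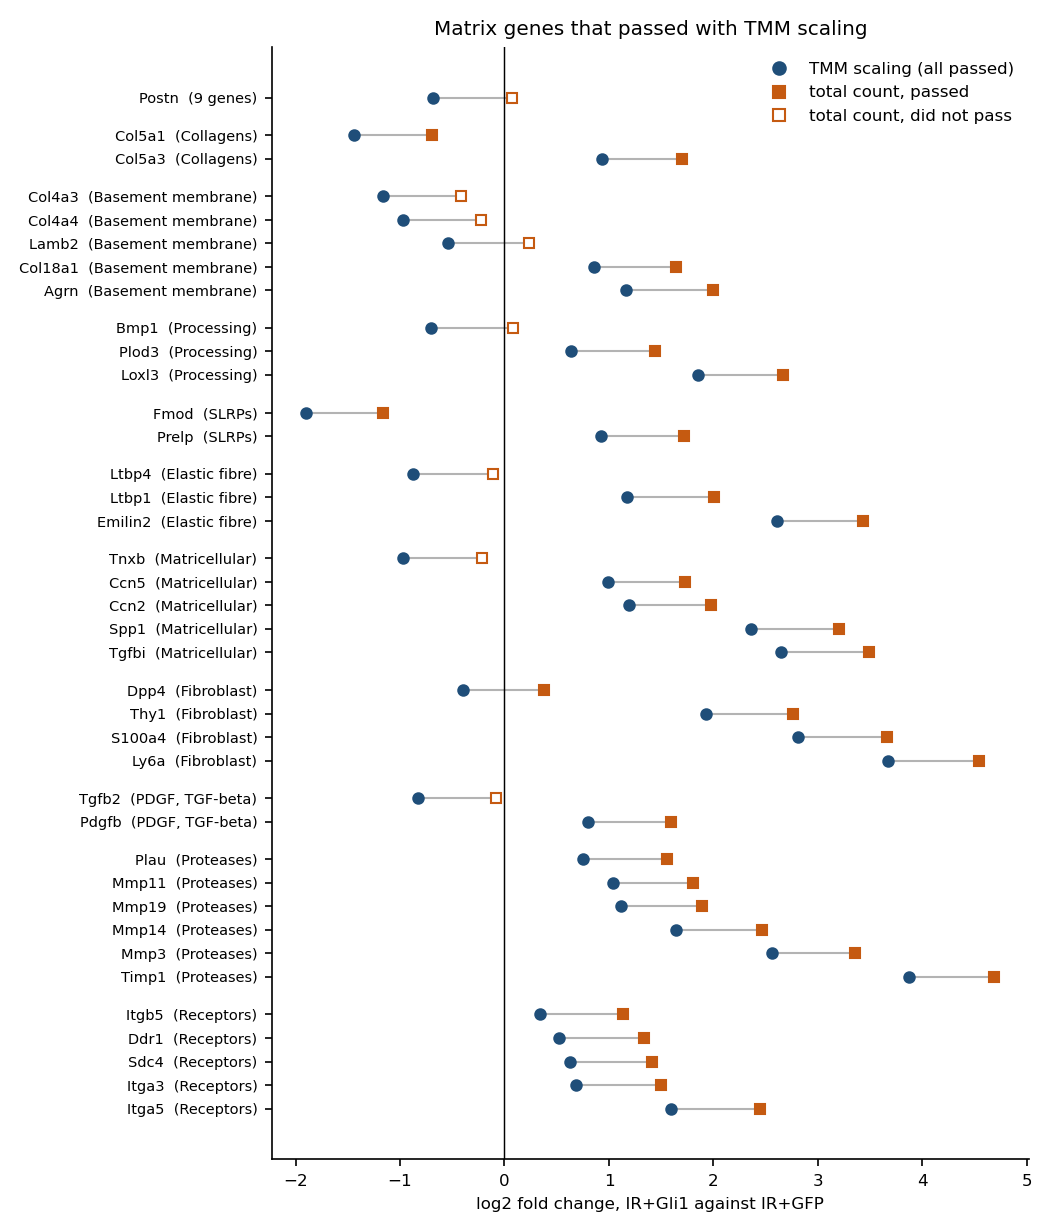
Log2 fold change in IR+Gli1 against IR+GFP (horizontal axis) of Postn and the 37 other matrix genes that passed with TMM scaling, grouped by list. Circles are TMM scaling and squares total-count scaling, filled where they passed. Lines join the values of a gene. Proteases and receptors lie to the right of 0 under both scalings. Of the genes to the left of 0 under both, Col5a1 and Fmod alone also passed with total-count scaling.

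In IR+Shh against IR+Gli1, 9 of the 171 rose and 14 fell with TMM scaling, 13.5% beside the 7.76% of all genes, with a median of -0.01. With total-count scaling 7 rose and 85 fell, 53.8%, where 8092 of all 14300 genes passed, 8008 of them as lower. The medians on that scale were -0.63 for the 171 and -0.66 for all genes. As that scaling put most genes lower in IR+Shh, a repeat of a lower call is no separate support. All 14 that fell and 4 of the 9 that rose passed in the same direction. The 4, which with Lum stood higher in IR+Shh under both scalings, were Col14a1 (1.44 ± 0.33), a fibril-associated collagen, the laminin chain gene Lama2 (2.01 ± 0.48), Fmod (1.81 ± 0.36) and the matricellular gene Smoc2 (1.37 ± 0.29). Col14a1 was at 2.52 and 5.57 CPM in IR+Gli1 and 9.71 and 11.9 in IR+Shh, and Lama2 at 1.41 and 4.31 against 8.24 and 14.1. The other 5 that rose with TMM scaling alone were Col4a4 (1.10 ± 0.24), Ltbp4 (0.79 ± 0.15), Fap (1.17 ± 0.30), Itga1 (0.67 ± 0.14) and Dpp4 (0.49 ± 0.10), and the fold change of Dpp4 was below 0 with total-count scaling.

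Among the 14 lower in IR+Shh were Timp1 (-3.42 ± 0.42), Mmp3 (-3.32 ± 0.24), Plau (-0.98 ± 0.16), Spp1 (-2.25 ± 0.35), Tgfbi (-1.66 ± 0.30), Ly6a (-2.81 ± 0.48), Ltbp1 (-1.56 ± 0.30) and Loxl3 (-1.76 ± 0.31). Prelp (-0.76 ± 0.11), Agrn (-0.94 ± 0.20), Plod3 (-0.52 ± 0.13), Sdc4 (-0.70 ± 0.13) and Itga3 (-0.67 ± 0.16) were also lower. With IR+Shh 2 left out 0 of the 23 passed, without IR+Shh 1-3 1, without IR+Gli1 1-2 6, and without IR 1-2 and IR 3 10 and 11. This comparison shares its IR+Gli1 samples with the preceding one.

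Markers of other cells differed between the same groups, and their part in the results was not tested. The 12 macrophage markers summed to 312 to 360 CPM in IR+Gli1, 121.5 to 186 in IR+GFP and 232 to 252.5 in IR+Shh. The sums were 220 to 246 CPM in NT and 156 to 160 in IR. Of the 12, 6 rose in IR+Gli1 against IR+GFP, where 1177 of all 14300 genes passed as higher. In IR+Shh against IR+Gli1, 5 of the 12 fell and Mrc1 alone rose with TMM scaling (log2 1.01 ± 0.21, edgeR adjusted p = 0.0244). Of all 14300 genes, 714 passed as lower and 395 as higher there. With total-count scaling Mrc1 did not pass (0.39, adjusted p = 0.166). Mrc1 was at 4.665 and 5.886 CPM in IR+Gli1, 5.16 and 7.196 in IR+GFP, and 9.189 and 12.09 in IR+Shh. The 13 endothelial markers summed to 83.9 to 95.8 CPM in IR+Gli1 and 52.1 to 71.8 in the other groups. The 13 markers of smooth muscle, pericytes and myoepithelium summed to 768 to 1025 CPM in IR+Gli1, 1125 to 1128 in IR+GFP, 1041 to 1220 in IR+Shh, 1107 to 1271 in IR and 963 to 966 in NT. With TMM scaling, as for Postn, all NT and IR+Gli1 samples were below all others. With total-count scaling the IR+Gli1 samples, at 1317 and 1340 CPM, were the highest of all, and the others lay between 849 and 1212. Of 11 granular tubule markers 9 fell in IR+Gli1 against IR+GFP, where 5.71% of all genes passed as lower. Summed fibroblast markers, 22 genes, were at 631 to 1081 CPM in IR+Gli1 and 293 to 410 in the other groups. Ly6a alone gave 771 and 311 CPM of this in IR+Gli1, and the sum of the 21 other markers was 310 and 320 CPM there, within the 254 to 374.5 of the other samples. With total-count scaling that sum was 419 and 531 CPM in IR+Gli1 and 220 to 344 elsewhere. The fibroblast transcription factor gene Tcf21 had 0 reads in every sample. The 8 adipocyte markers summed to 4.92 to 41.7 CPM in IR, 7.02 to 40.7 in IR+Shh and 5.57 to 6.72 in IR+Gli1. Adipoq, Plin1, Cidec and Retn had 0 reads in IR+Gli1. Some samples of every other group also had markers at 0, from 2 of the 8 in IR 3 to 5 in IR+Shh 1-3. NT 2-3, IR 1-2, IR+GFP 3 and IR+Shh 2 had none at 0.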

How the data were processed

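Total RNA (1 µg per library, TruSeq kit) was sequenced, per the labels' protocols. The authors deposited raw read counts per gene for each library. Bowtie 0.12.2, TopHat2 2.0.13, HTSeq 0.10.0, DESeq2, mm10 and GRCm38 are named in the submitters' processing notes, and the strand mode is not given in the sources used here. Gene symbols came from GENCODE vM21 and named 96.2% of gene IDs. The summary lines of the tables (reads with no gene) were left out, 6.98% to 13.9% of reads per library.

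The 15 libraries were reduced to 10 samples by rounding the mean counts of near-identical pairs (mean chi-square per gene under 1). All 10 samples entered 1 edgeR 4.0.16 quasi-likelihood fit in R 4.3.3 (filterByExpr, TMM, robust, prior count 2), with 5 residual degrees of freedom, a biological coefficient of variation of 0.191 and a Benjamini-Hochberg threshold of 0.05 over 14300 genes. On simulated counts for IR+Shh against IR+GFP (13981 genes), 63% of 2-fold and 96% of 4-fold changes were recovered and 3.64% of calls were false. The simulated counts had the same mean in every group apart from the changed genes, all drawn from better expressed genes. They held no pairing and no difference in scaling between groups, so these rates can overstate what the real comparisons recover. The labels do not say that replicate numbers pair samples. Deviations from the group means correlated at r = 0.479 to 0.51 for numbers 1, 2 and 3 between IR+GFP and IR+Gli1, and at -0.0961 to 0.0903 for the 27 other same-numbered pairs. As libraries 1 and 2 are near-identical in IR+GFP and in IR+Gli1, the former correlation rests on 2 separate samples per group. The main fit held no pairing. Alternatives used the replicate number as a block over all 5 groups, or a coefficient shared by IR+GFP 3 and IR+Gli1 3. DESeq2 1.42.0, limma-voom (limma 3.58.1), other scalings, filters and sample sets were alternatives.

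The members and gene lists were chosen with earlier results of these data known. Genes of a list were named by rule: per comparison, up to 3 with the smallest adjusted p among those that passed. All 9 members are named. Some ratios were chosen after the values were seen. Promoter sequences came from RefSeq (GRCm38.p6). No result was adjusted over a list alone.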

Additional observations from a re-analysis of the deposited data

How the results depend on the processing

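Over 23 alternatives, the 1035 fold changes of the 9 genes kept direction and side of the threshold in 914 cases, gained a call in 36, lost one in 33 and turned in 52. The main limits are the scaling of IR+Gli1, n = 2 per group and the low counts of Fn1, Pdgfra and Lum. The cause of the changes below was not tested.

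With total-count scaling, in IR+Gli1 against IR+GFP, fold changes were 0.47 for Col1a1, 0.64 for Col1a2, 0.36 for Col3a1, 0.0675 for Postn, 0.49 for Sparc, 0.49 for Fn1, 0.0808 for Bmp1 and 0.37 for Dpp4. In IR+Shh against IR+Gli1 they were -0.14 for Col1a2, -0.12 for Sparc, -0.45 for Dcn, -0.31 for Pdgfra and -0.14 for Dpp4. In IR against NT, Pdgfra was at -0.0070 (total count), -0.0035 (no filter) and -0.00039 (deeper library of each pair), and Col3a1 at -0.00044 with 15 libraries. Postn was at -0.048 in IR+GFP against IR when the libraries IR+GFP 3 and IR+Gli1 3 had their own term, and in IR+Shh against IR+GFP at 0.15 (total count), 0.0018 (no filter), 0.0020 (1 CPM filter) and 0.12 (that term). Fn1 was at 0.63 in IR+Gli1 against IR+GFP without both IR+GFP 3 and IR+Gli1 3.

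With 1 sample left out, fold changes in IR against NT ran from -0.18 to 0.24 for Pdgfra, -0.14 to 0.34 for Col3a1, -0.21 to 0.11 for Dcn, -0.56 to 0.20 for Lum and -0.79 to 0.20 for Fn1. In IR+GFP against IR they ran from -0.51 to 0.16 for Col1a1, -0.40 to 0.25 for Col1a2, -0.18 to 0.12 for Dcn, -0.42 to 0.0637 for Lum, -1.22 to 0.10 for Fn1 and -0.67 to 0.0285 for Col3a1. In IR+Gli1 against IR+GFP the ranges were -0.65 to 0.0836 for Col1a1, -0.49 to 0.25 for Col1a2, -0.83 to 0.46 for Fn1 and -0.0396 to 0.17 for Dcn. They were -0.12 to 0.11 for Postn in IR+Shh against IR+GFP, and -0.0569 to 0.39 for Dcn and -0.27 to 1.02 for Pdgfra in IR+Shh against IR+Gli1. A group left with 1 sample was assumed to vary like the others.

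Of all genes, IR against NT called 97, and 1242 with no filter, 479 by DESeq2, 4154 with 15 libraries, 182 with the term, 311 without both libraries and 9 to 538 with 1 sample left out. IR+GFP against IR called 0, and 210 with no filter, 7 by DESeq2, 5 with 15 libraries and 0 to 1 with 1 left out. IR+Gli1 against IR+GFP called 1993, and 9749 with total count, 1 with the compared groups only, 6518 with 15 libraries and 91 to 2987 with 1 left out. IR+Shh against IR+GFP called 0, and 435 with no filter, 32 by DESeq2, 24 with the compared groups only, 538 with 15 libraries, 2 with the term and 2 without both libraries. IR+Shh against IR+Gli1 called 1109, and 8092 with total count, 2639 with no filter, 9 with the compared groups only, 6065 with 15 libraries, 2392 without both libraries and 0 to 2286 with 1 left out.

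Of the 9 genes, 1 was called with no filter in IR against NT, beside 1242 of all genes, and 1 in IR+Shh against IR+GFP, beside 435. The counts of the 9 that follow stand beside those of all genes in the preceding paragraph. Where none is given there, as for DESeq2 in both comparisons with IR+Gli1, the count of all genes is not printed here. Calls of the 9 without that count are not to be read as a result about them. More genes were tested with no filter. In IR+Gli1 against IR+GFP 1 was called, and 3 with total count, 4 with no filter, 2 by DESeq2, 0 with the compared groups only, 4 with 15 libraries, 2 without both libraries and 0 to 3 with 1 left out. In IR+Shh against IR+Gli1 3 were called, and 1 with total count, 7 with no filter, 5 by DESeq2, 0 with the compared groups only, 5 with 15 libraries, 6 with the term, 7 without both libraries and 0 to 5 with 1 left out.

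The replicate block was fitted on 15 libraries, which count near-identical libraries separately. Its calls are compared with the fit on 10 samples, so they also reflect the larger number of libraries. With the replicate block, all genes called were 4048 in IR against NT, 6495 in IR+Gli1 against IR+GFP, 433 in IR+Shh against IR+GFP and 6092 in IR+Shh against IR+Gli1. Of the 9 genes, the replicate block called 4 in IR+Gli1 against IR+GFP and 6 in IR+Shh against IR+Gli1, with Fn1 at 0.0651 in the former and Col3a1 at -0.0152 in IR against NT.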
